A study of Zea mays with 12 samples.

Results

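Germination of a maize seed begins with imbibition, the uptake of water by the dry grain, and the RNA of the first hours comes partly from messages stored at maturation and partly from new transcription. Mature seeds hold storage proteins, oil bodies and protective proteins such as late embryogenesis abundant (LEA) proteins and dehydrins. Respiration resumes within the first hours after wetting, and the enzyme complexes that carry it out are built from subunits of both the nuclear and the mitochondrial genome. Here the change in the wild type between 0 and 6 hours after imbibition (HAI) was described across all genes, from the 3 libraries of KN5585_6h and the 3 of KN5585_0h, 6 of the 12 libraries of the series.

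RNA-seq libraries were made from whole seeds of the inbred line KN5585 at 6 HAI (KN5585_6h) and at 0 HAI (KN5585_0h), and from seeds of the Crispr/Cas9 knockout *ereb92* in the same background at both times, with 3 libraries in each of 4 groups. In the study's germination assay, seeds were sterilized with NaClO, washed, and kept on wet filter paper at 28°C in the dark. Conditions for the seeds taken for RNA-seq are not given separately, and no hormone or inhibitor is named for them. The *ereb92* seeds came from a single mutant line. Whole seeds hold embryo, endosperm and seed coat together, so fewer cells of a type and less RNA per cell cannot be told apart. The study describes the 3 libraries of a group as biological replicates, but no field, ear or box is named, so all p-values measure only the spread between these samples, which may in part be technical.

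Embryo and endosperm transcripts were both present in every library. Of the 12 embryo markers fixed for the check (globulins, oleosins and embryo specific proteins), 12 were tested and 1 was higher at 6 HAI. Together they took 9.13%, 7.48% and 7.21% of all counts in KN5585_6h (replicates 1 to 3, the order used throughout) and 7.75%, 7.15% and 7.77% in KN5585_0h. Endosperm markers (zeins and starch mutants) took only 0.028%, 0.019% and 0.0308% in KN5585_6h and 0.0324%, 0.0891% and 0.0267% in KN5585_0h. KN5585_0h replicate 2 thus held the most endosperm transcript. Of 29 endosperm markers tested 25 were lower at 6 HAI and 4 higher, with a median log2 fold change 1.45 below that of all genes.

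Libraries held 12791022 to 14943161 counts in KN5585_6h and 13445201 to 14429842 in KN5585_0h, and 3 counts, taken as the smallest abundance that can be shown, equalled 0.187 to 0.274 CPM (a gene's counts scaled to a common library size). KN5585_6h replicate 1 stood apart. It had a count on 23104 genes, against 27689 and 27795 in the other KN5585_6h libraries and 28129 to 30702 in KN5585_0h, and 23087 at equal depth. In that library alone 2541 genes were at 0, of which 671 had at least 10 counts in each of the other 5, whereas 104 to 345 genes were at 0 in any other single library alone. It also held relatively more of long transcripts: the median log2 CPM of the longest 10% of genes minus that of the shortest 10%, each gene centred on its mean, was 0.91 there, -0.04 and -0.41 in the other KN5585_6h libraries, and -0.34 to -0.23 in KN5585_0h. Mitochondrial rRNA took 1.57% of its counts, against 0.0626% and 0.0328% in the other KN5585_6h libraries, and 0.327%, 0.0169% and 0.0114% in KN5585_0h. Over genes, which are not independent replicates, Pearson's r of log2 CPM was 0.798 to 0.882 within KN5585_6h and 0.876 to 0.947 within KN5585_0h, and up to 0.92 between libraries of different time points. Results that move with KN5585_6h replicate 1 are given below with and without it.

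**Figure D1:**
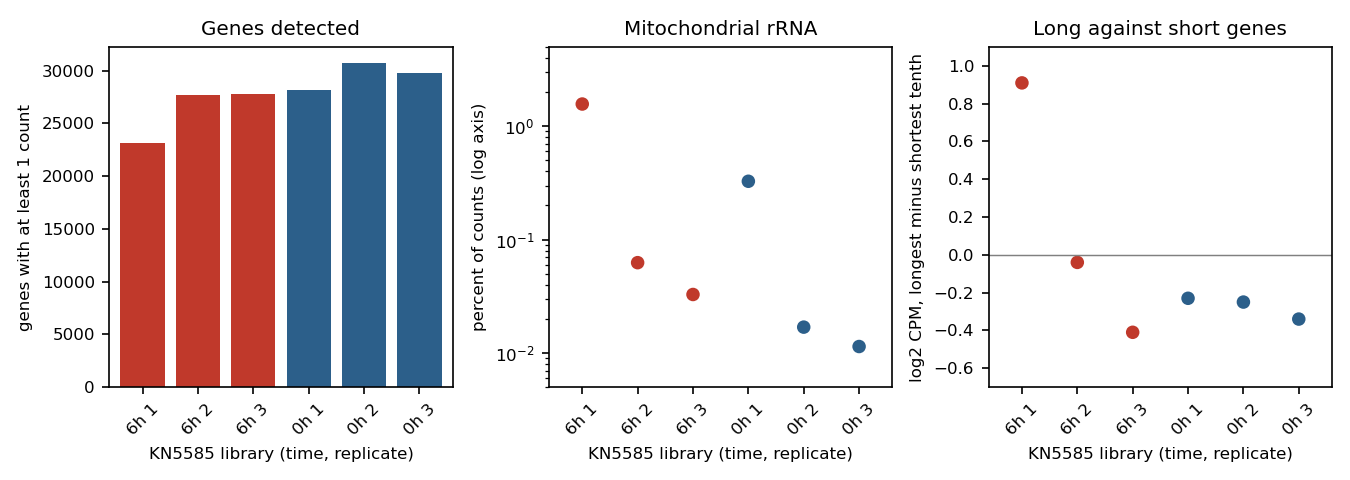
Genes with at least 1 count, percent of counts on mitochondrial rRNA (log axis) and the log2 CPM difference between the longest and the shortest 10% of genes, for each KN5585 library. KN5585_6h replicate 1 detected 23104 genes, held 1.57% mitochondrial rRNA and lay at 0.91 in the length comparison, while the other 5 libraries lay at or below -0.04 there.

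Few changes were large beside this spread. Genes were tested with edgeR (quasi-likelihood, Benjamini-Hochberg), and a differentially expressed gene (DEG) had to differ at least 2-fold with an adjusted p below 0.05. Of 22282 genes tested, 1 was up-regulated (0.00449%) and 0 were down-regulated (0%). DESeq2's Wald test, run without edgeR's filter on low counts but with its own default filtering, called 47 up and 35 down. Without its filter edgeR called 10 up and 4 down. Taking 2-fold genes by the p before adjustment (the unadjusted threshold, 0.05), edgeR gave 230 genes higher (1.03%) and 273 lower (1.23%) at 6 HAI, so that 45.7% of them were higher, or 65.5% when libraries were scaled by their totals alone. Without the fold condition 814 genes passed (3.65%). All 3 KN5585_6h values lay above all KN5585_0h values for 1068 genes (4.79%) and below them for 1248 (5.6%). The median log2 fold change of all genes tested was -0.02, and 88.2% of genes had a fold change under 2. Scaling by totals alone moved that median to 0.12, and the medians of gene lists below are therefore given relative to all genes tested.

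Genes of the mitochondrial genome stood out. Plant mitochondria keep their own genome, which encodes a few subunits of the respiratory complexes, some proteins of the mitochondrial ribosome, proteins that attach haem to cytochrome c, and open reading frames of mostly unknown function. The table lists 175 such genes. The filter on low counts kept 33, and 32 of these were higher in KN5585_6h. This filter asks for enough counts in only 3 libraries, so a gene can pass through KN5585_6h alone. For example, *nad9* had 4, 0 and 0 counts in KN5585_0h, and *orf129-a* had 1, 1 and 3. Such genes could hardly come out lower or overlap, and they are included in the numbers that follow. At the unadjusted threshold 22 of the 33 were higher (66.7%, against 1.03% of all genes) and none lower, and 25 did not overlap between the time points (75.8%, against 4.79%). Their median log2 fold change was 2.43 above that of all genes, between the quartiles 1.33 and 3.52 before centring. The 33 genes together took 0.0971%, 0.142% and 0.0765% of all counts in KN5585_6h and 0.0138%, 0.0298% and 0.0198% in KN5585_0h. The 142 genes that were not tested added 191 to 544 counts per library in KN5585_6h and 39 to 93 in KN5585_0h.

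The terminal oxidase of respiration, complex IV, held the DEG. *cox3* (ZeamMp161), which encodes its subunit III, lies at 441570 to 442367 on the minus strand of the mitochondrial genome (Mt) in B73 RefGen_v4, the build used for all positions. It had 98.8, 96.7 and 72.6 CPM in KN5585_6h and 9.79, 7.51 and 8.75 CPM in KN5585_0h, which is 3.36 on the log2 scale (SE 0.255, edgeR adjusted p = 0.0233). The lowest KN5585_6h value was more than any KN5585_0h value, with a wide gap between the groups. Leaving out single libraries gave log2 fold changes of 3.27 to 3.48, but the adjusted p was 0.0542 to 0.571, so the call did not hold without any one of the 6 libraries. *cox1* (ZeamMp136, Mt 354865 to 356451, plus strand), the catalytic subunit, had 255, 349 and 284 CPM in KN5585_6h and 44.6, 59.8 and 39.1 CPM in KN5585_0h (log2 fold change 2.63, SE 0.27, edgeR adjusted p = 0.0795). Per length its level was also above that of *cox3*, with a mean of 191 FPKM in KN5585_6h and 30.9 FPKM in KN5585_0h for *cox1*, and 115 FPKM in KN5585_6h and 11.1 FPKM in KN5585_0h for *cox3*. *cox2* (ZeamMp179) had 21.4, 38.6 and 18.3 CPM in KN5585_6h and 7.86, 8.65 and 5.81 CPM in KN5585_0h. All 3 complex IV genes of the mitochondrial genome that were tested were thus higher at 6 HAI without overlap.

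Mitochondrial genes of the other respiratory complexes showed the same direction, and nuclear genes of the complexes are given below. For complex I, which passes electrons from NADH, *nad4* (ZeamMp032) had 41.6, 53.1 and 64.6 CPM in KN5585_6h and 10.2, 9.29 and 7.7 CPM in KN5585_0h (log2 fold change 2.55, SE 0.273, edgeR adjusted p = 0.0795). *nad7* (ZeamMp086) had 4.84, 11.6 and 3.85 CPM in KN5585_6h and 0.64, 0.509 and 0.302 CPM in KN5585_0h. All 4 mitochondrial complex I genes tested were higher without overlap, with a median log2 fold change of 3.17. For complex V, the ATP synthase, *atp4* (ZeamMp051) had 50.2, 104 and 56.9 CPM in KN5585_6h and 4.21, 7 and 6.19 CPM in KN5585_0h (log2 fold change 3.59, SE 0.38, edgeR adjusted p = 0.0795). *atp1-a1* (ZeamMp163), the alpha subunit, had 6.75, 8.94 and 4.02 CPM in KN5585_6h and 0.366, 0.127 and 0.0754 CPM in KN5585_0h, the last from 4, 2 and 1 counts. Among the mitochondrial genes of this complex *atp6* (ZeamMp182) differed least. It had 24, 24.1 and 11.3 CPM in KN5585_6h and 10.7, 8.72 and 8.68 CPM in KN5585_0h. The single mitochondrial complex III gene tested, *cob*, was higher without overlap as well.

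Mitochondrial genes for making the complexes were higher too. The cytochrome c maturation genes *ccmFN* (ZeamMp098) and *ccmC* (ZeamMp069) had log2 fold changes of 3.46 (SE 0.435) and 3.21 (SE 0.456). *ccmFN* had 28.3, 54.4 and 28 CPM in KN5585_6h and 3.11, 4.71 and 2.19 CPM in KN5585_0h. Of 7 mitochondrial ribosomal protein genes 7 were higher, 5 of them without overlap, with a median log2 fold change of 2.69. *rps1* (ZeamMp097) had 16.1, 30.3 and 18.2 CPM in KN5585_6h and 1.55, 0.954 and 0.604 CPM in KN5585_0h (log2 fold change 4.38, SE 0.499, edgeR adjusted p = 0.0997). *rps7* (ZeamMp159) had 39.2, 76.2 and 42.6 CPM in KN5585_6h and 5.67, 10.1 and 8.68 CPM in KN5585_0h. *rps3* (ZeamMp024) had 9.75, 12.5 and 7.86 CPM in KN5585_6h and 0.0914, 1.02 and 0.981 CPM in KN5585_0h. In all of these the lowest value at 6 HAI exceeded the highest value at 0 HAI.

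The open reading frames were more mixed. Their median log2 fold change was 1.02 over 10 genes, of which 5 did not overlap. *orf99-d* (ZeamMp050) had 49.4, 70.9 and 25.6 CPM in KN5585_6h and 3.02, 0.573 and 2.34 CPM in KN5585_0h, and it lies 222 bases from *atp4* on the same strand. *orf129-a* was at or under 3 counts in every KN5585_0h library and was at least 8.66-fold higher in KN5585_6h. *orf147-b* (ZeamMp137), 22 bases from *cox1* on the other strand, overlapped between the groups, with 76.4, 172 and 81.6 CPM in KN5585_6h and 41.4, 85.1 and 54.2 CPM in KN5585_0h. The only one of the 33 genes with a lower mean at 6 HAI was *orf179* (ZeamMp091), with 0.255, 3.25 and 3.76 CPM in KN5585_6h and 1.83, 4.52 and 6.19 CPM in KN5585_0h. Neighbouring genes on one strand, such as *rps1* and *ccmFN* (140 bases apart) or *rps3* and *rpl16* (overlapping by 152 bases), may share transcripts or reads, so the 33 genes are not 33 independent measurements. Genes with copies in the same genome, such as *atp1-a1* and *orf99-d*, can also share reads with those copies, and their values are uncertain.

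**Figure D2:**
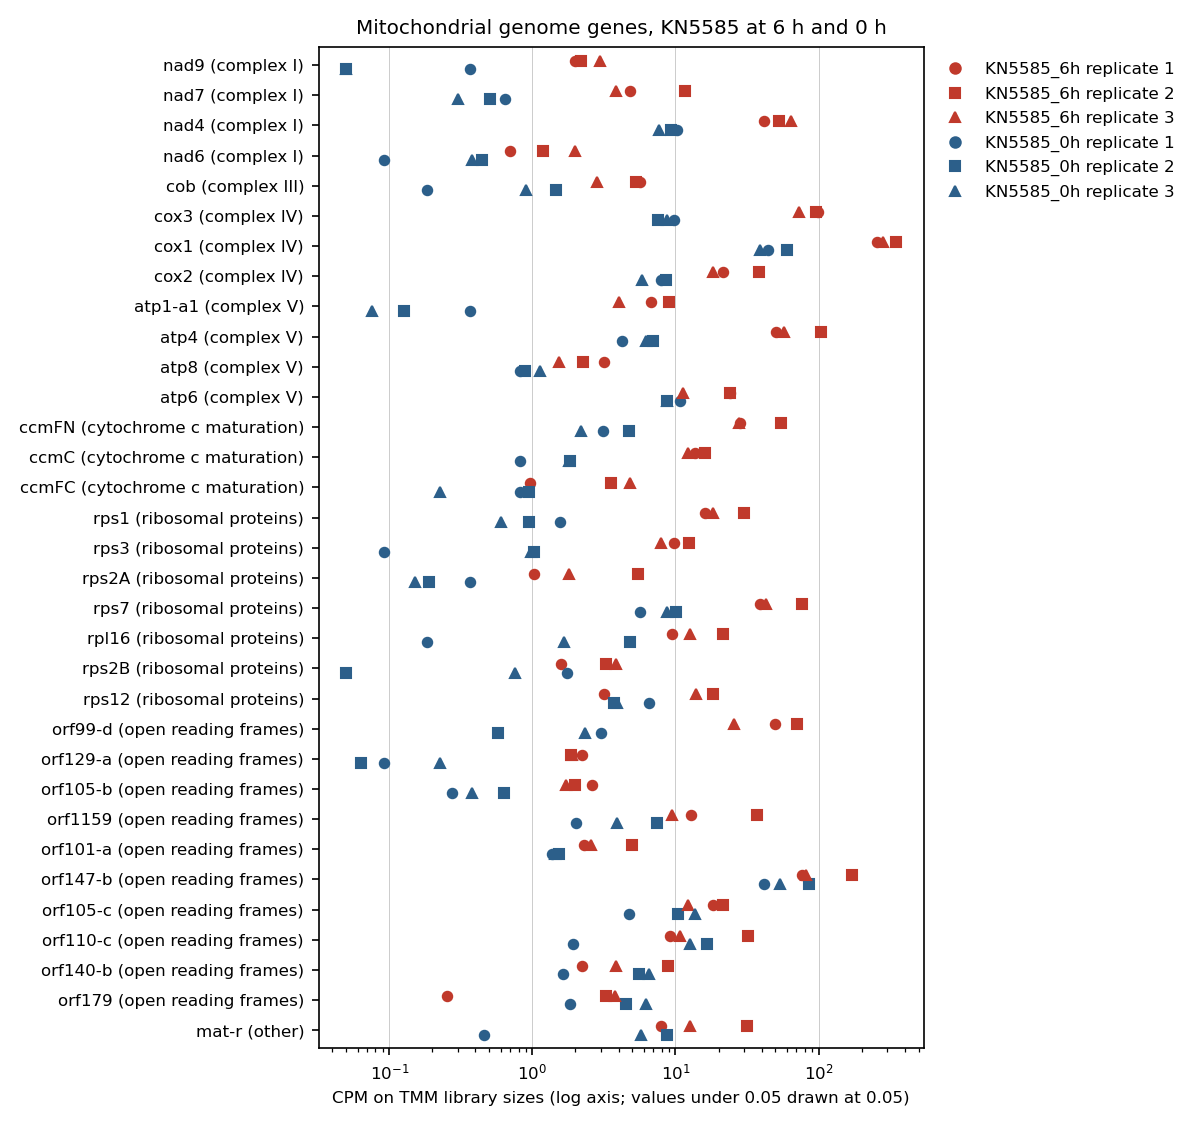
CPM (log axis) of the 33 mitochondrial genome genes tested, by role, in 3 KN5585_6h libraries (upper marks) and 3 KN5585_0h libraries (lower marks). For 25 genes every KN5585_6h value lies to the right of every KN5585_0h value, and orf179 is the only gene with a lower mean at 6 HAI.

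This shift did not rest on one library. A score was computed for each list and library as the median over its genes of log2 CPM minus the gene's mean, relative to all genes tested. For the mitochondrial genes it was 1.01, 1.52 and 1.05 in KN5585_6h and -1.44, -0.88 and -1.24 in KN5585_0h. Without KN5585_6h replicate 1, 36 of 37 genes tested were higher, 27 at the unadjusted threshold, and the median was 2.72 above that of all genes. Over all alternatives that median was 1.80 to 2.75. Mitochondrial rRNA, which is not counted among the mitochondrial genes above, had a higher mean in KN5585_6h but overlapped between the time points. The log2 fold change was 1.71 (SE 1.7) for the 26S rRNA and 1.76 (SE 1.55) for the other mitochondrial rRNA tested. The 26S rRNA had 163088, 6685 and 3404 counts in KN5585_6h and 35012, 1719 and 995 counts in KN5585_0h, with the most in replicate 1 at both times. The relation of the mRNA values to the rRNA content of a library was not tested. The libraries were made from RNA bound to oligo(dT), and plant mitochondrial mRNAs carry few poly(A) tails, so the values follow tailed RNA, and the part of tailing in the difference was not tested.

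Nuclear genes of the respiratory chain did not share this shift. Of 125 tested, 58 were higher and 67 lower, with a median 0.01 below that of all genes. Library scores were -0.06, -0.06 and 0.11 in KN5585_6h and 0.1, -0.2 and 0.06 in KN5585_0h, an overlap of the groups. Of this list, 5 genes were higher (4%, against 1.03% of all genes) and 3 lower (2.4%, against 1.23%) at the unadjusted threshold. Among the 5 higher ones, 3 are nuclear or newly assembled genes annotated as proteins that the mitochondrial genome encodes. Zm00001d046260, annotated as NADH dehydrogenase subunit 7, had 21.8, 24.7 and 21.2 CPM in KN5585_6h and 0.366, 2.42 and 0.0754 CPM in KN5585_0h (log2 fold change 4.51, SE 0.93). Such copies can share reads with the mitochondrial genes, and their values are uncertain. The lower ones were small subunits: Zm00001d037485, subunit 8 of the cytochrome b-c1 complex, had 12.2, 7.75 and 11.1 CPM in KN5585_6h and 39.5, 22.6 and 30.1 CPM in KN5585_0h (log2 fold change -1.57, SE 0.321). Cytochrome c oxidase subunits Vb and 6a (Zm00001d044459 and Zm00001d034218) had log2 fold changes of -1.12 and -1.08. Organellar ribosomal proteins encoded in the nucleus lay 0.38 below all genes (50 tested, 12 higher), and 0.17 below without KN5585_6h replicate 1. Genes of the plastid genome, 114 in the table, had too few counts for any to be tested.

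Among nuclear genes with higher values at 6 HAI, 2 entered the 12 with the smallest p, the other 10 being mitochondrial. Zm00001d044442 (chromosome 3, 228214808 to 228222699, minus strand) is annotated as ABC transporter G family member 40, in Arabidopsis an importer of abscisic acid. It had 58, 30.2 and 73.5 CPM in KN5585_6h and 6.4, 11.5 and 6.41 CPM in KN5585_0h (log2 fold change 2.73, SE 0.415, edgeR adjusted p = 0.319). Zm00001d016438, a 3-ketoacyl-CoA synthase, an enzyme of very-long-chain fatty acid elongation, had 30.3, 31.2 and 46.8 CPM in KN5585_6h and 13.4, 11.8 and 11.5 CPM in KN5585_0h (log2 fold change 1.56, SE 0.273). Neither pair of groups overlapped. Zm00001d042056, the calcium-binding protein CML38, had 2.55, 12.3 and 9.57 CPM in KN5585_6h and 1.01, 0.445 and 1.06 CPM in KN5585_0h. Zm00001d038045, aspartic proteinase A1, of a family that cleaves seed storage proteins, had 37.3, 25.1 and 21.4 CPM in KN5585_6h and 8.32, 11.6 and 9.13 CPM in KN5585_0h. Zm00001d038532, a GPI-anchored lipid transfer protein, had 473, 541 and 135 CPM in KN5585_6h and 123, 72.2 and 84.7 CPM in KN5585_0h. All of these separated the time points, and none passed the adjusted threshold.

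The KN5585_6h libraries differed among themselves for many of the higher genes. Of the 230 genes higher at the unadjusted threshold, 108 had their highest value in KN5585_6h replicate 3, 69 in replicate 1 and 53 in replicate 2. Zm00001d013163, a formin, had 8.54, 1.62 and 25.7 CPM in KN5585_6h and 0.457, 0.763 and 0.679 CPM in KN5585_0h. Zm00001d031635, peroxidase 55 of the cell wall class, had 21.9, 7.69 and 61.1 CPM in KN5585_6h and 3.38, 5.41 and 2.41 CPM in KN5585_0h. Both were highest in replicate 3. Zm00001d048602, a GRAS transcription factor, had 10.1, 3.37 and 13.3 CPM in KN5585_6h and 1.55, 2.04 and 1.21 CPM in KN5585_0h. Zm00001d017762, abscisic acid 8'-hydroxylase1, which begins the breakdown of abscisic acid, had 3.76, 1.69 and 2.91 CPM in KN5585_6h and 0.914, 0.509 and 0.453 CPM in KN5585_0h. Neither of these overlapped between the time points. *ZmEREB92* was read from Zm00001d000339, which the table gives under that EREB name on a contig outside the chromosomes. The study states that the edited gene is missing from this build, and how far these counts measure it was not tested. It had 13.1, 4.44 and 32 CPM in KN5585_6h and 8.78, 1.59 and 2.04 CPM in KN5585_0h, which overlapped. Elongation factor 1-alpha, *ZmEF1a* (Zm00001d009870), used as a reference transcript, had 294, 287 and 351 CPM in KN5585_6h and 247, 263 and 280 CPM in KN5585_0h (log2 fold change 0.24, SE 0.22).

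Genes of the MAP kinase cascade lay on the higher side. These kinases relay signals by phosphorylating each other in sequence. Of 52 tested, 39 were higher, 11 without overlap (21.2%, against 4.79% of all genes), and 3 were lower without overlap. The median was 0.29 above all genes, 0.27 without KN5585_6h replicate 1, and the scores were 0.11, 0.13 and 0.2 in KN5585_6h and -0.09, -0.15 and -0.2 in KN5585_0h. Zm00001d039141, MAP kinase 20, had 55.8, 32.1 and 49.4 CPM in KN5585_6h and 26.2, 12.9 and 13.5 CPM in KN5585_0h (log2 fold change 1.39, SE 0.363). Protein kinases as a whole, the 524 tested genes whose annotated domain was Pkinase, had 46 higher without overlap (8.78%) and 18 lower (3.44%), with a median 0.14 above all genes.

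Lists related to growth were mixed. The 18 tested genes with a formin homology domain (FH2), most of them annotated as formins, which build actin filaments, had the highest median of the 196 domains with at least 10 genes tested, 0.54 above all genes. Of the 18, 16 were higher and 5 did not overlap (27.8%, against 4.79%), and the scores were 0.43, 0.25 and 0.39 in KN5585_6h and -0.24, -0.28 and -0.4 in KN5585_0h. One of them is annotated as a vacuolar sorting protein (Zm00001d035757, log2 fold change 0.27), and Zm00001d013163, the formin given above, has no such domain entry and is not among them. The cytoskeleton list (200 tested, 119 higher) lay 0.09 above all genes, with 17 genes higher without overlap (8.5%) and 7 lower. Genes of the cell cycle and DNA replication (60 higher, 41 lower) lay 0.13 above, and 0.05 above without KN5585_6h replicate 1. Cellulose synthases and their partners (24 tested, 18 higher) lay 0.34 above all genes, and their scores overlapped. Expansins and xyloglucan enzymes, which loosen cell walls, had 15 higher and 22 lower of 37 tested, and pectin enzymes had 21 higher and 25 lower of 46, both with a median 0.02 below all genes. The COBRA-like gene *roothair defective3* (Zm00001d028826) had 2.74, 8.56 and 33.6 CPM in KN5585_6h and 4.02, 2.04 and 2.11 CPM in KN5585_0h. The lists with higher medians hold long transcripts, with a median length of 4166 bases for FH2 genes, 3920 for cellulose synthases, 2742 for the cytoskeleton and 2693 for MAP kinases, against 1888 for all genes tested. Without KN5585_6h replicate 1, the library with relatively more of long transcripts, FH2 genes lay 0.45 above all genes, cellulose synthases 0.35 and the cytoskeleton 0.08, and the part of transcript length in these values was not tested.

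WRKY transcription factors, which act in stress and developmental signaling, had 39 of 55 tested genes higher and lay 0.4 above all genes. Their scores were -0.7, 0.22 and 0.48 in KN5585_6h and -0.3, 0.01 and -0.13 in KN5585_0h, so that they were lowest in KN5585_6h replicate 1, and without it the median was 0.55 above all genes. Of 31 genes of ethylene synthesis and signaling 20 were higher, with a median 0.22 above all genes, but 0 passed the unadjusted threshold and 1 was higher without overlap (3.23%). Scores did not overlap for 6 of the 46 lists with tested genes: the mitochondrial genome, MAP kinases, ethylene, the cell cycle and the cytoskeleton upward, and aquaporins downward. Ethylene and the cell cycle did so only after genes matched by mistake had been taken out of these lists. Of all genes tested, 10.4% did not overlap in either direction. Scores without overlap are therefore weak evidence for a list by themselves, and how many lists would separate by chance was not tested.

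**Figure D3:**
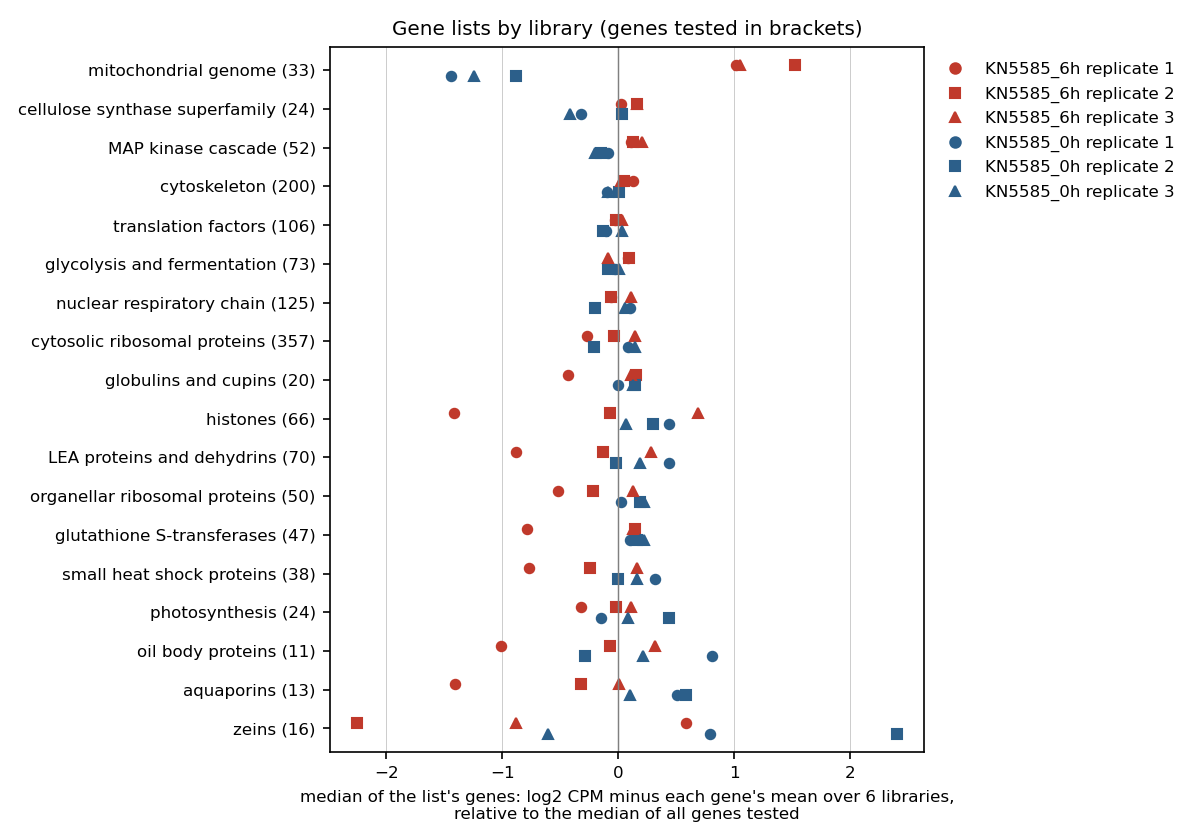
Score of 18 gene lists in each KN5585 library, the median over a list's genes of log2 CPM minus the gene's mean over 6 libraries, relative to all genes tested (0). The mitochondrial genome lies at 1.01 to 1.52 in KN5585_6h and -1.44 to -0.88 in KN5585_0h, and for histones, LEA proteins, glutathione S-transferases and oil body proteins KN5585_6h replicate 1 lies far to the left of the other KN5585_6h libraries.

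Genes of seed maturation were on the lower side. LEA proteins and dehydrins are hydrophilic proteins that accumulate in drying seeds. Their list had 70 genes tested, of which 48 were lower and 22 higher. Matched by words, it also held genes annotated as HVA22-like, as GEM-like or as LEA hydroxyproline-rich glycoproteins. All values given for the list include these genes, and LEA proteins and dehydrins in the narrow sense were not counted apart. At the unadjusted threshold 8 were lower (11.4%, against 1.23% of all genes) and none higher, and 12 were lower without overlap (17.1%, against 5.6%). Together they took 3.93%, 5.6% and 6.09% of counts in KN5585_6h and 9.59%, 7.4% and 8.68% in KN5585_0h. Zm00001d043709, a group 3 LEA protein (chromosome 3, 207985777 to 207987092, plus strand), had 139, 178 and 175 CPM in KN5585_6h and 445, 380 and 375 CPM in KN5585_0h (log2 fold change -1.29, SE 0.232, edgeR adjusted p = 0.708). *dehydrin1* (Zm00001d037894), among the 10 genes with most counts, had 14300, 15300 and 17900 CPM in KN5585_6h and 43200, 21300 and 32000 CPM in KN5585_0h. The seed maturation protein PM41 (Zm00001d044022) had 145, 635 and 855 CPM in KN5585_6h and 1720, 1370 and 2070 CPM in KN5585_0h. The list's median was 0.32 below all genes, and 0.15 below without KN5585_6h replicate 1, where 5 of 72 were lower at the unadjusted threshold and 2 higher. Its scores were -0.88, -0.13 and 0.28 in KN5585_6h and 0.44, -0.02 and 0.19 in KN5585_0h.

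Storage protein genes were lower mainly through the zeins, the prolamins of maize endosperm. Of 16 zeins tested, 15 were lower, 5 at the unadjusted threshold (31.2%, against 1.23% of all genes), with a median 1.81 below all genes. The 15 kDa zein (Zm00001d035760) had 10.8, 2.62 and 6.33 CPM in KN5585_6h and 32.2, 114 and 46.9 CPM in KN5585_0h (log2 fold change -3.29, SE 0.643). The 27 kDa zein (Zm00001d020592), the most abundant, had 34.3, 10.3 and 57.4 CPM in KN5585_6h and 74.4, 184 and 42.8 CPM in KN5585_0h, which overlapped. Zein levels were highest in KN5585_0h replicate 2, and zeins are themselves among the endosperm markers above, and the scores were 0.58, -2.25 and -0.88 in KN5585_6h and 0.79, 2.4 and -0.61 in KN5585_0h. Without that library the median was 0.55 below all genes and 1 zein was lower at the unadjusted threshold, and without KN5585_6h replicate 1 the median was 3.33 below and 9 of 17 were lower. The part of endosperm content in this was not tested. A vicilin-like storage protein (Zm00001d029062) had 158, 208 and 264 CPM in KN5585_6h and 400, 771 and 739 CPM in KN5585_0h, and *globulin2* (Zm00001d034413) had 42000, 20500 and 14200 CPM in KN5585_6h and 12900, 10000 and 16000 CPM in KN5585_0h.

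Aquaporins, the membrane channels for water, had 13 genes tested, of which 11 were lower, 4 without overlap (30.8%, against 5.6% of all genes). *tonoplast intrinsic protein3* (Zm00001d013956), of the type found on storage vacuoles of seeds, had 490, 692 and 1050 CPM in KN5585_6h and 2260, 1310 and 1560 CPM in KN5585_0h (log2 fold change -1.2, SE 0.377). *plasma membrane intrinsic protein1* (Zm00001d051403) had 95.9, 131 and 128 CPM in KN5585_6h and 233, 243 and 177 CPM in KN5585_0h (log2 fold change -0.88, SE 0.245). The most abundant member, TIP1-1 (Zm00001d027652), had 750, 1810 and 3000 CPM in KN5585_6h and 3050, 2490 and 2450 CPM in KN5585_0h, which overlapped. The median was 0.91 below all genes, with 3 lower at the unadjusted threshold (23.1%, against 1.23%), and 0.53 below without KN5585_6h replicate 1, with 2 of 16. Scores were -1.41, -0.32 and 0.01 in KN5585_6h and 0.51, 0.58 and 0.1 in KN5585_0h.

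Several other lists were lower mostly in KN5585_6h replicate 1. Histones (66 tested) lay 0.3 below all genes, but 0.06 above them without that library, where the scores had been -1.42, -0.07 and 0.69 in KN5585_6h and 0.44, 0.3 and 0.07 in KN5585_0h. Small heat shock proteins (38 tested, 30 lower) lay 0.39 below all genes and 0.11 below without it. Among these the class II protein Zm00001d047548 had 127, 93.4 and 187 CPM in KN5585_6h and 314, 267 and 248 CPM in KN5585_0h, while Zm00001d028643 had 22.2, 18.8 and 13.3 CPM in KN5585_6h and 12.5, 5.92 and 7.92 CPM in KN5585_0h. Oil body proteins, which coat lipid stores, had 11 of 11 lower, 0.5 below all genes, and 9 of 11 lower and 0.17 below without that library. *oleosin1* (Zm00001d002768) had 8500, 25800 and 33400 CPM in KN5585_6h and 39800, 23200 and 30600 CPM in KN5585_0h. Glutathione S-transferases lay 0.38 below and then 0.13 below. The transcripts of these lists are short: the median length was 642 bases for histones, 663 for small heat shock proteins and 561 for oil body proteins, against 1888 for all genes tested. Over all genes the median log2 fold change was -0.18 in the shortest 10% and 0.12 in the longest, and -0.07 and 0.00 without KN5585_6h replicate 1. The part of transcript length in the lower lists was not tested.

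Of the nuclear genes that were lower at 6 HAI, 12 with the smallest p are shown in the plot by library, and none passed the adjusted threshold. Zm00001d031727, *sorbitol dehydrogenase homolog1* (chromosome 1, 199715758 to 199718643, plus strand), an enzyme that interconverts sorbitol and fructose, had 152, 160 and 220 CPM in KN5585_6h and 691, 801 and 434 CPM in KN5585_0h (log2 fold change -1.85, SE 0.317, edgeR adjusted p = 0.565). Zm00001d019041, the glycine-rich RNA-binding protein RZ1C, was the most even, with 36.6, 33.3 and 35.4 CPM in KN5585_6h and 73.3, 85.6 and 104 CPM in KN5585_0h (log2 fold change -1.32, SE 0.223). Zm00001d047272, an expressed protein without a named function, had 8.35, 9.37 and 8.21 CPM in KN5585_6h and 25.4, 32.6 and 41.2 CPM in KN5585_0h (log2 fold change -1.93, SE 0.282, edgeR adjusted p = 0.288). Zm00001d035543, glycine-rich protein A3, had 25.7, 57.2 and 64.9 CPM in KN5585_6h and 204, 167 and 210 CPM in KN5585_0h. Zm00001d037489, 60S ribosomal protein L23a-1, had 7.96, 10.9 and 9.06 CPM in KN5585_6h and 17.6, 44.5 and 49.3 CPM in KN5585_0h. Zm00001d052676, type III polyketide synthase B, was low at 6 HAI, with 0.51, 0.562 and 1.37 CPM in KN5585_6h and 3.66, 29.1 and 9.43 CPM in KN5585_0h. Phosphoethanolamine N-methyltransferase 3 (Zm00001d038891) and a chloroplast outer envelope protein (Zm00001d041979) had log2 fold changes of -1.52 and -1.29.

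**Figure D4:**
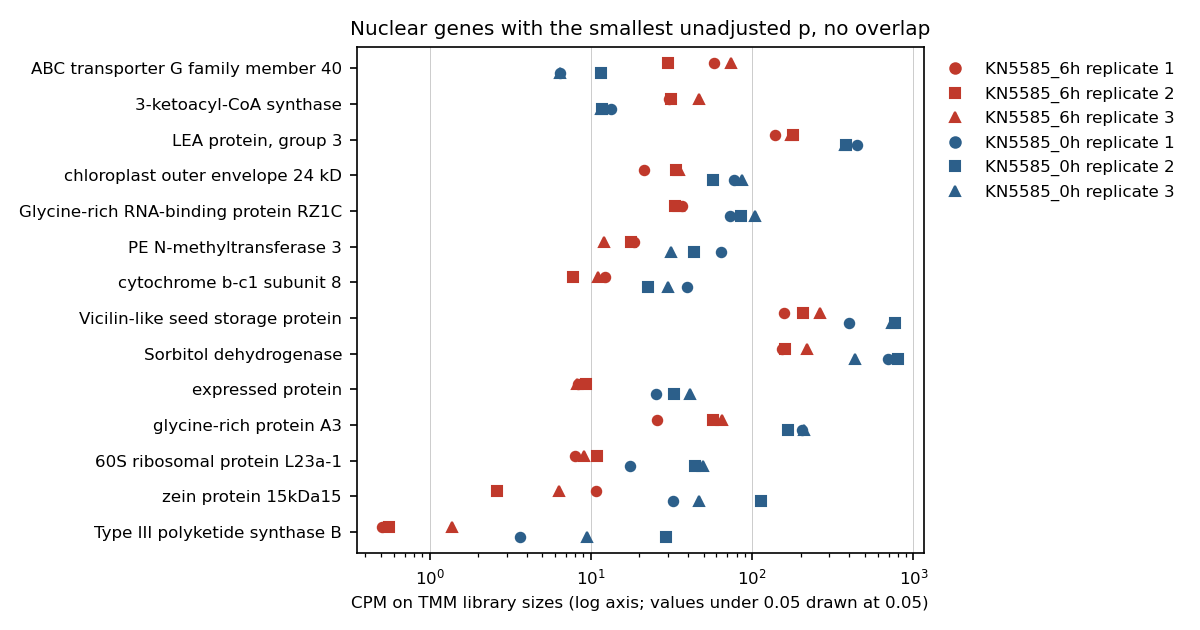
CPM (log axis) of the 14 nuclear genes among the 24 with the smallest unadjusted p in either direction, in 3 KN5585_6h libraries (upper marks) and 3 KN5585_0h libraries (lower marks), ordered by log2 fold change from the highest. The groups do not overlap for any of them, since that was a condition of the choice.

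A few genes were at or under 3 counts in every library of 1 time point. Of the 230 genes higher at the unadjusted threshold, 8 were at or under 3 counts in every KN5585_0h library, and of the 273 lower ones 16 were so in every KN5585_6h library. Formin-like protein 18 (Zm00001d034221) had 0.828, 0.687 and 20.1 CPM in KN5585_6h and 0 counts in KN5585_0h, at least 31.2-fold higher in the mean, which rests on replicate 3. Zm00001d038720, without annotation, had 4.52, 9.94 and 1.28 CPM in KN5585_6h and 0.0914, 0 and 0 CPM in KN5585_0h, at least 22.8-fold higher. A newly assembled transcript without annotation had 0 counts in all KN5585_6h libraries and 6.68, 4.01 and 4.68 CPM in KN5585_0h, at least 24.2-fold lower at 6 HAI when 3 counts per library are taken as the floor. Basic endochitinase 1 (Zm00001d014840) had 0 counts in KN5585_6h and 1.28, 1.59 and 1.43 CPM in KN5585_0h, at least 6.78-fold lower. Newly assembled transcripts as a class (2675 tested) made up 63 of the 273 genes lower at the unadjusted threshold and 18 of the 230 higher ones. These were 2.36% and 0.673% of the class, against 1.23% and 1.03% of all genes. *chitinase A1* (Zm00001d003190), abundant in dry seeds, had 10900, 8480 and 15400 CPM in KN5585_6h and 42700, 20700 and 20900 CPM in KN5585_0h. *metallothionein2* (Zm00001d029778), the gene with most counts, shows how far replicates differed, with 17800, 33500 and 38200 CPM in KN5585_6h and 54600, 8590 and 38300 CPM in KN5585_0h.

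Genes of RNA processing and of cytosolic ribosomes had medians close to that of all genes. Genes with an RNA recognition motif (RRM_1, 240 tested) had 29 lower without overlap (12.1%, against 5.6%) and 8 higher, with a median 0.06 below all genes. Without KN5585_6h replicate 1 their median was 0.12 below all genes, and 85 of 242 were higher. Of 115 splicing factors 12 were lower without overlap and 3 higher. The U2af splicing factor Zm00001d039014 had 36, 49.4 and 56.5 CPM in KN5585_6h and 103, 93.3 and 76.5 CPM in KN5585_0h, whereas the core factor 8A (Zm00001d045199) had 135, 142 and 158 CPM in KN5585_6h and 118, 94.5 and 80.9 CPM in KN5585_0h. Cytosolic ribosomal proteins (357 tested) had 27 lower without overlap (7.56%, against 5.6%) and 6 higher, with a median 0.06 below all genes and 0.04 above them without KN5585_6h replicate 1. Lists for glycolysis and fermentation, starch degradation, proteasome, auxin, cytokinin and translation factors had medians within 0.12 of all genes. Within these, *alcohol dehydrogenase1* (Zm00001d033931) had 161, 116 and 182 CPM in KN5585_6h and 391, 246 and 202 CPM in KN5585_0h, and the proteasome activator PA200 (Zm00001d037401) had 22.6, 24.7 and 22 CPM in KN5585_6h and 14.1, 9.48 and 9.2 CPM in KN5585_0h.

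The *ereb92* libraries share none with KN5585 and were set beside these values. There 1385 of 23575 genes were up-regulated (5.87%) and 25 down-regulated (0.106%), and the common dispersion was 0.298 in KN5585 and 0.184 in *ereb92*. Of the 220 genes higher in KN5585_6h at the unadjusted threshold that were tested in both, 190 were also higher in *ereb92*_6h and 110 were DEGs there. Of the 249 lower ones, 181 were lower in *ereb92*_6h and 1 was a DEG. Among all 21329 genes tested in both, 9869 were higher in *ereb92*_6h. The ABC transporter Zm00001d044442 and the 3-ketoacyl-CoA synthase Zm00001d016438 had log2 fold changes of 2.73 and 1.56 in KN5585 and of 4.3 and 3.58 in *ereb92*, where both were DEGs. Of the 30 mitochondrial genes tested in both, 28 were higher in *ereb92*_6h but 0 were DEGs. Their median log2 fold change in *ereb92* was 1.19, and that of *cox3* was 1.55 (edgeR adjusted p = 0.169). The difference between genotypes, tested as an interaction over all 12 libraries, was called for 8 of 25567 genes (0.0313%), all with a larger increase in *ereb92*, and for none of the 33 mitochondrial genes, with an adjusted p of 0.467 for *cox3*. The entry Zm00001d000339, read as *ZmEREB92* with the limit given above, had a log2 fold change of 2 in KN5585, where the groups overlapped. In *ereb92* its log2 fold change was 5.26. Reads on this entry were thus still present in the mutant libraries and do not check their labels.

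**Figure D5:**
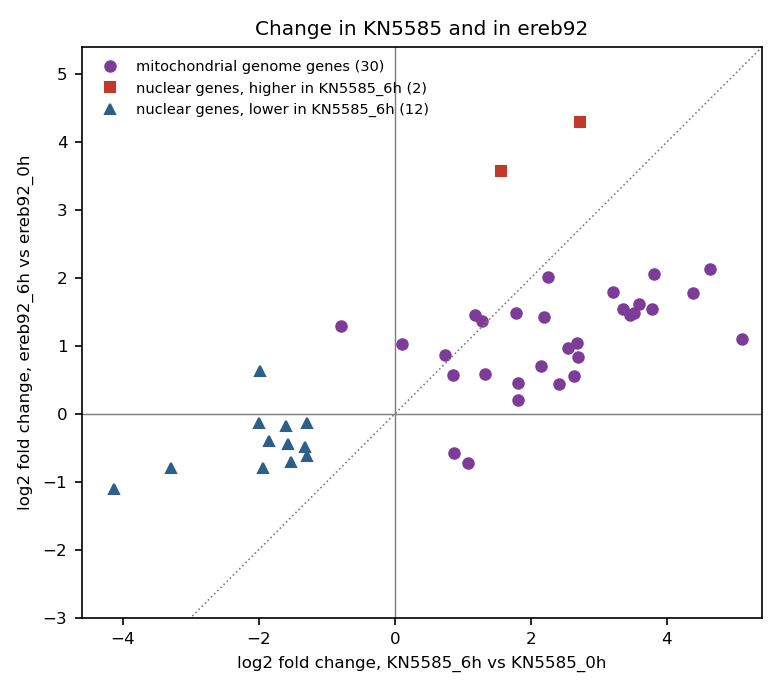
Log2 fold change of KN5585_6h vs KN5585_0h (horizontal) and of ereb92_6h vs ereb92_0h (vertical) for 30 mitochondrial genome genes and 14 nuclear genes chosen by their p in KN5585, with equality dotted. Of the mitochondrial genes 28 lie above 0 in ereb92, and both nuclear genes that were higher in KN5585_6h lie above the dotted line.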

How the data were processed

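Per the labels and the study's methods, polyA RNA of whole seeds was sequenced, reads were aligned to B73 RefGen_v4 with Hisat2, and the authors counted reads per gene with featureCounts. The deposited counts are not normalized and cover 55529 genes. The deposited FPKM values divide these counts by gene length and library size and were used only to compare levels between genes. The deposited gene length is in bases. Columns of the authors' own comparisons (group means, fold changes, p-values) were not used, and 0 columns per sample were left unused. The column of transcription factor families holds names of protein domains for 13433 genes.

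Counts of the 6 KN5585 libraries were fitted with edgeR 4.0.16 (R 4.3.3; TMM, filterByExpr, glmQLFit, glmQLFTest), and CPM values used the TMM library sizes, with a prior count of 2 for log2 CPM. The script was checked on simulated data. The 47 lists were matched by words in names and descriptions. In 11 of them genes matched by mistake (such as "acting" for actin) were taken out from their annotation after values were seen. Named genes were DEGs, the 12 in each direction with the smallest p among described genes of at least 2-fold, no overlap and a mean of at least 5 CPM, the 10 with most counts, in each list the most abundant member and the smallest p in each direction, *ZmEREB92* and *ZmEF1a*. Others were added after their values were seen. The groups, lists and rules were chosen with earlier results of these data known. Alternatives were other scalings, filters, 1 fit of 12 libraries, the replicate block, a robust fit, DESeq2 1.42.0 and leaving out each library. How the counting handled strand and multiply mapped reads is not given in the sources used here. Floors cover counting error only. Each SE was derived from the log2 fold change and edgeR's quasi-likelihood F statistic, and so includes the spread between libraries.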

Additional observations from a re-analysis of the deposited data

How the results depend on the processing

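The 1 up-regulated gene became 10 with no filter on low counts, 4 with at least 10 counts in every library, 0 with all 12 libraries in 1 fit, 0 with the replicate block and 47 with DESeq2, and 0 to 1 without 1 library. The 0 down-regulated genes became 4 with no filter, 35 with DESeq2 and 0 to 1 without 1 library. At the unadjusted threshold, 230 higher genes became 360 without scaling factors, 385 with no filter, 448 with 12 libraries, 152 with the replicate block, 448 with DESeq2 and 152 to 476 without 1 library, the last without KN5585_6h replicate 1. The 273 lower genes became 643 with no filter, 629 with 12 libraries, 241 with the replicate block, 683 with DESeq2 and 146 to 846 without 1 library, the last without KN5585_6h replicate 3. The cause of these differences was not tested. The main fit did not pair samples with the same replicate number, and whether these share a batch is not stated. Their deviations from the group means correlated with r of -0.0175, 0.204 and -0.249, which does not settle it. Replicate 1 held the most mitochondrial rRNA at both times (1.57% in KN5585_6h and 0.327% in KN5585_0h). With the replicate block the edgeR adjusted p of *cox3* was 0.347. The log2 fold change of *metallothionein2* (Zm00001d029778), -0.18, reversed to 0.03 without scaling factors, 0.1 with the replicate block, and to 0.1 without KN5585_6h replicate 1 and 0.34 without KN5585_0h replicate 1, within a range of -0.63 to 0.34 without 1 library. Of 1057 values of 67 named genes over 16 alternatives, 996 kept direction and call, 49 gained a call (35 with DESeq2) and 8 lost it, all for *cox3*. Of 736 list medians 33 moved by more than the spread between libraries. With the words as first matched, an alternative chosen after seeing the data, the median was 0.85 below all genes for aquaporins (17 tested), 0.11 above for the cytoskeleton (218), 0.06 above for the cell cycle (171) and 0.09 above for ethylene (54), and the scores of the last pair overlapped.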
